A study of Homo sapiens with 4 samples.

Results

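The genes described here are 8 replacement histone variants, H3F3A, H3F3B, H2AFZ, H2AFV, H2AFX, H2AFJ, H2AFY and H2AFY2, out of 57773 genes in the authors' deposited table. They were chosen by name, as rows whose gene name is one of these H2A and H3 variants, and the rule uses no measured value. The samples were 2 established human multiple myeloma lines, KMS12PE and KMS11, a malignancy of antibody-secreting plasma cells. Each line was treated with 1 µM OSSL_325096, a compound for which the labels give only a code, or with the solvent DMSO alone, which gave 4 libraries, 1 for each combination. A treatment group thus had 2 libraries that came from different lines, and neither line was replicated. How long the cells were treated was not given in the sources used here.

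Values for each gene come from the comparison that the authors made across the lines. It lists 1 level, the mean RPKM (read count scaled by transcript length and by mapped reads) of whichever treatment group had more, together with a log2 fold change and a p-value. Single libraries and their depth were not analysed here, so no value per sample, no spread over samples and no likeness of pattern across samples can be given. Positive log2 fold changes mean higher RNA with OSSL_325096, since the title of the table names the compound before DMSO. In such bulk RNA, a change in the mix of cells, for example in the share that are cycling, and a change in RNA per cell cannot be told apart. Beside each log2 fold change stands an implied standard error (SE), obtained by dividing the fold change by the normal quantile that the deposited p-value corresponds to. It holds exactly for a two-sided normal test and is otherwise approximate. Each treatment group pools 2 different lines, and no pairing by line is stated. The implied SE, and the 95% intervals drawn from it, may thus also carry differences between the lines, which was not tested. Over the 11324 genes of at least 1 RPKM, the median implied SE was 1.10 and the median absolute log2 fold change 0.21. A gene is called here by size, at 1.5-fold or more in either direction, because 0 of 11324 genes of at least 1 RPKM passed a Benjamini-Hochberg adjusted p of 0.05 recomputed from the authors' p-values, and 5 (0.0442%) had an unadjusted p under 0.05. The plasma cell markers SDC1, CD38, IRF4, PRDM1, XBP1, TNFRSF17 and POU2AF1 were all present, from 11.4 to 180 RPKM in the authors' deposited table. Of 9 markers of T cells, monocytes, mature B cells, fibroblasts and red cells, 0 reached 1 RPKM and 3 were listed at 0.

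Most histone genes are transcribed only while DNA is copied, and their mRNAs end in a stem-loop in place of a poly(A) tail. Replacement variants are made throughout the cell cycle, mostly from polyadenylated mRNA, and are placed into chromatin outside replication by dedicated chaperones and remodellers. H3.3, encoded by H3F3A and H3F3B, marks active genes and, through another chaperone, telomeres and repeats. H2A.Z, encoded by H2AFZ and H2AFV, flanks the start sites of genes. H2AX, from H2AFX, is phosphorylated around DNA double-strand breaks. The macroH2A proteins, from H2AFY and H2AFY2, carry a large extra domain and are enriched in silent chromatin, and H2A.J, from H2AFJ, accumulates in senescent cells.

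The genes for a shared or nearly shared protein differ in their RNA sequence, which is what lets reads be told apart. H3F3A and H3F3B encode the same protein, yet their coding sequences of 411 bases, read from the GENCODE 44 annotation on GRCh37, were identical at 323 positions (78.6%), and their longest identical stretch was 14 bases. The first 90 coding bases of both are shown with the differing bases in capitals.
H3F3A: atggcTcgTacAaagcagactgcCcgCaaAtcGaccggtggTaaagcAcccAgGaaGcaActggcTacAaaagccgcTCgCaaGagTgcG
H3F3B: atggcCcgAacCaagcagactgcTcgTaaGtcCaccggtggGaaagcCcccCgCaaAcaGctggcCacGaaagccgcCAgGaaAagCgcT
The capitals mark 21 differing positions, 19 of them at the third base of a codon, and over the whole coding sequence 77 of 88 differences lay there. H2AFZ and H2AFV, whose products differ at a few residues, shared 311 of 387 coding bases (80.4%), with a longest identical stretch of 23 bases, and 65 of their 76 differences lay at the third base of a codon. In their first 90 bases, 19 differed.
H2AFZ: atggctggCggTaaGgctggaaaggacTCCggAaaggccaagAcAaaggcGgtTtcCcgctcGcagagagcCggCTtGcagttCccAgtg
H2AFV: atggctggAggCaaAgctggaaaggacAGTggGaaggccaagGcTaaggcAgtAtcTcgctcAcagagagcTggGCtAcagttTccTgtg
H2AFY and H2AFY2 were less alike, with 67.6% identity over 1119 coding bases and 202 of 362 differences at the third base of a codon. The closest stretch between members was 44 identical bases in H2AFX and H2AFJ, both of which have a single exon in that annotation, while the other members have 4 to 9. The last 30 coding bases hold the site at which DNA damage kinases phosphorylate H2AX, a serine codon followed by a glutamine codon, shown in capitals.
H2AFX: aaggccacccaggccTCCCAGgagtactaa
H2AFJ: acggagAGTCAGaagacgaagagcaaatga
H2AFZ: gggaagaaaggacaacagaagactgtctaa
In H2AFX the serine is codon 140 counted from the start codon, and the pair is followed by 2 codons and the stop. H2AFJ has such a pair at codon 123, with 5 codons after it, and H2AFZ has none in this stretch. H2AFX also holds a histone stem-loop, whose first base lies 50 bases after the stop codon (chr11:118965603-118965628, GRCh37, minus strand, in the 3′ UTR), shown in capitals with 5 bases on each side, which the coordinates include.
H2AFX stem-loop: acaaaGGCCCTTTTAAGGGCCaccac
It was the 1 member of 8 with such a match in the 300 bases after the stop codon. The match was present in 73 of 19195 annotated genes (0.38%), and in all 30 replication-dependent core histone genes of the table whose 3′ UTR the annotation gives. H2AFX is known to make both a short stem-loop mRNA and a longer polyadenylated one. The mRNA was selected with oligo(dT) beads, which bind poly(A) tails, and a value per gene does not separate the forms.

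The upstream sequences were compared as well, to see what these genes share at their start sites. In the 250 bases before the RefSeq start sites (GRCh38.p14), 5 of the 8 members held at least 3 copies of CCAAT, counted on both strands, where 3.55% of 27305 genes held that many in any window. H3F3B, H2AFV and H2AFX had 4 copies each, H2AFZ and H2AFJ 3. H3F3A, with 4 annotated start sites, had at most 1 copy per window, H2AFY at most 2 in its 2 windows, and H2AFY2 none. TATAAA was present in H3F3B, H2AFZ and H2AFX and in 10.7% of 35116 windows. An E2F site (0.968% of windows), the cyclic AMP response element (1.65%) and a heat shock element of 3 units (0.441%) were found in none of the members' windows. The matches to CCAAT and TATAAA did not overlap each other. Below, capitals mark CCAAT, its reverse ATTGG, and TATAAA, in the 3 windows that hold both motifs, and in the H3F3A window nearest its coding sequence.
H3F3B, chr17:75779780-75780029, minus strand: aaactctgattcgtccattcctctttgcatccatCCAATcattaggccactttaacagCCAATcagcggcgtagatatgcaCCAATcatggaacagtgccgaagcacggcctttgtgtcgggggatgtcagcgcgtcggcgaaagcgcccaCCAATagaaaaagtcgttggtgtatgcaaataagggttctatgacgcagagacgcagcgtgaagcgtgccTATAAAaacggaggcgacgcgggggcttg
H2AFZ, chr4:99950276-99950525, minus strand: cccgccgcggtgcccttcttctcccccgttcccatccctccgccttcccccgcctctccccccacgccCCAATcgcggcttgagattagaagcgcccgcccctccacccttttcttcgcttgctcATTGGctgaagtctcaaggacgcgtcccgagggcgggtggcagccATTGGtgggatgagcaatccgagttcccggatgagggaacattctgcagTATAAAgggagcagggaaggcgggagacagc
H2AFX, chr11:119095466-119095715, minus strand: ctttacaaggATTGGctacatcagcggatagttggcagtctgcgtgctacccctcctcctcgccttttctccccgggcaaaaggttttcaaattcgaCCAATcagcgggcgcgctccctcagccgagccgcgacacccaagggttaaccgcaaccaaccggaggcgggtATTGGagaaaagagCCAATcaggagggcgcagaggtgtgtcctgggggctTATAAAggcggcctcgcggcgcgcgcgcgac
H3F3A, chr1:226062466-226062715, plus strand: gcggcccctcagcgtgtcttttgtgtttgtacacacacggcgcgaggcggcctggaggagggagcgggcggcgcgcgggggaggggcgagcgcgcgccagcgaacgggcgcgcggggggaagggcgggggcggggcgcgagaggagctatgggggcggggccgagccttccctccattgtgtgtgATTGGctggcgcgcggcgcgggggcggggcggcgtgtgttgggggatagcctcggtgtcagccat
These matches describe letters and do not show that a factor is bound. As the values that follow show, H2AFX and H3F3A, the farthest apart in fold change of the members that reached 1 RPKM, carry 4 copies and 1 copy in the windows printed. H3F3B and H2AFV, with 4 copies each, had log2 fold changes of -0.05 and 0.08. A relation of copies to fold change was not tested.

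Abundance separated the members far more than the treatment did. H2AFZ was the highest at 313 RPKM in the authors' deposited table, the 110th highest of the 11324 genes of at least 1 RPKM. Next came the H3.3 genes at nearly equal levels, H3F3B at 178 RPKM and H3F3A at 170 RPKM in the authors' deposited table, a ratio of 0.958 of the latter to the former. H2AFX followed at 109 RPKM, H2AFV at 46.0 RPKM and H2AFY at 11.5 RPKM in the authors' deposited table. The listed level of H2AFZ, a DMSO mean, was 6.80-fold that of H2AFV, its partner for H2A.Z, whose listed level is an OSSL_325096 mean. If the deposited fold is the ratio of the group means, which is not stated, the other treatment group stood at 287 RPKM for H2AFZ, 171 for H3F3B, 132 for H3F3A, 83.8 for H2AFX, 43.6 for H2AFV and 11.4 for H2AFY. The higher group was DMSO for H2AFZ, H3F3B and H3F3A and OSSL_325096 for H2AFX, H2AFV and H2AFY, and the order of the 6 genes would be the same in both groups. Whether neighbours in this order differ beyond the spread of the libraries was not tested, since each level is a single mean. The last members were nearly or fully silent. H2AFJ was listed at 0.0251 RPKM and H2AFY2 at 0 RPKM without a fold change in the authors' deposited table, so that 6 of the 8 members reached 1 RPKM.

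**Figure D1:**
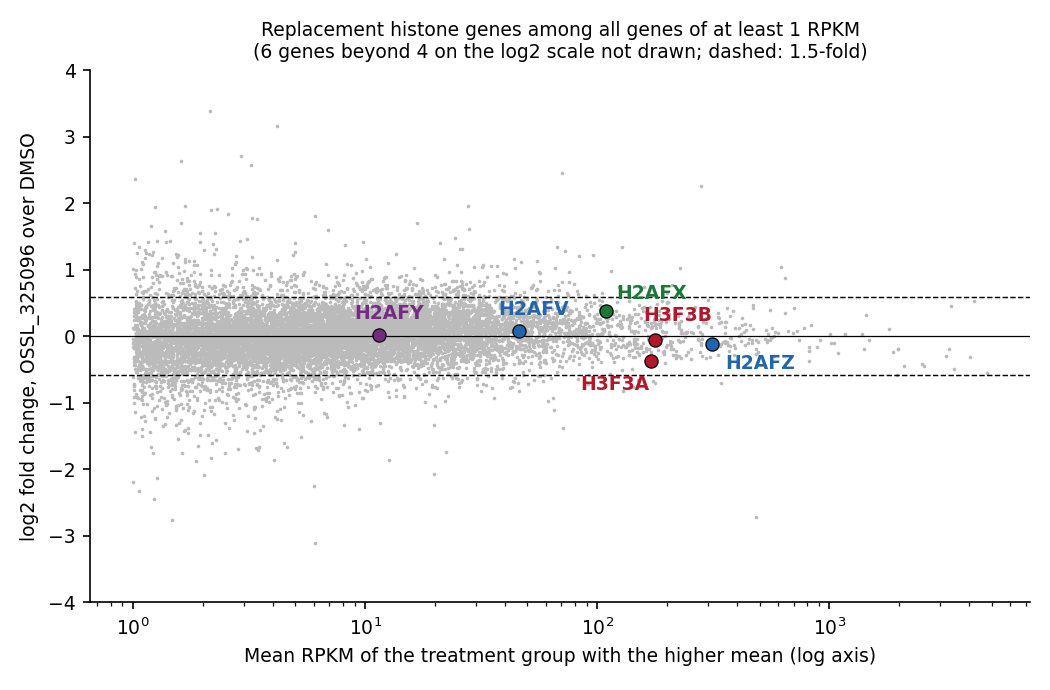
Each grey point is a gene of at least 1 RPKM, placed by the mean RPKM of its higher treatment group (horizontal, log axis) and its log2 fold change of OSSL_325096 over DMSO (vertical), with 6 genes beyond 4 on the log2 scale not drawn. The 6 coloured replacement histone genes all lie between the dashed lines at 1.5-fold, from H3F3A at -0.37 to H2AFX at 0.37.

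None of the 6 expressed members was 1.5-fold apart between the treatments. The same holds for most genes, since 9.9% of the 11324 were past 1.5-fold in either direction, 4.95% higher and 4.95% lower with the compound. The members split evenly, 3 above and 3 below 0, with a median log2 fold change of -0.02, beside 0.01 and 51% above 0 over all 11324 genes. With the GC, length and expression trend removed, 2 were above and 4 below 0. At a smaller size, 0.32 on the log2 scale, 1 member was higher (16.4% of all genes were) and 1 was lower (15.2% of all genes were). The other 4 lay between -0.12 and 0.08. The implied SEs ran from 0.88 to 1.01 on the log2 scale, at least 2 times the size of every one of these fold changes. Unadjusted p-values ran from 0.692 to 0.988 in the authors' deposited table, and the Benjamini-Hochberg adjusted p recomputed over all 11324 genes from these p-values was 0.9999 for each of the 6. These p-values rest on 1 library per line and treatment, with nothing in the labels on separate cultures, and they do not show that the genes were equal between treatments.

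H3F3A (chromosome 1, 226249552 to 226259702, plus strand, hg19) was the lowest of the members. The authors' deposited table put it at -0.37 on the log2 scale (implied SE 1.01, 95% interval -2.35 to 1.62), or 1.29-fold lower with OSSL_325096. A larger difference in either direction was found in 25.6% of the genes. H3F3B (chromosome 17, 73772515 to 73781974, minus strand), the other gene for the same H3.3 protein, had -0.05 in the authors' deposited table (implied SE 1.01, interval -2.03 to 1.93). The H3.3 genes thus differed by 0.31 on the log2 scale with an implied SE of 1.43 if their errors were independent. Under the same reading of the fold, the H3.3 genes together came to 348 RPKM with DMSO and 304 RPKM with OSSL_325096. Where reads of a gene can also match a copy, its value is uncertain, and H3F3A has such a copy. The processed pseudogene H3F3AP4 on chromosome 2 holds 91.8% of the 1040 stretches of 31 bases in the H3F3A transcript, and H3F3AP6 on chromosome 4 holds 31.2%. All 5 H3F3A pseudogenes were listed at 0 RPKM in the authors' deposited table. How reads matching several places were counted was not given in the sources used here. Neither of the H3F3B pseudogenes shared any of its stretches of 31 bases. The region of H3F3B overlaps the start of UNK on the opposite strand by 1294 bases, and without a stated strand setting reads from there cannot be told apart. UNK was listed at 8.11 RPKM and -0.25 in the authors' deposited table.

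The H2A.Z genes lay close to 0. For H2AFZ (chromosome 4, 100869243 to 100871545, minus strand) the authors' deposited table gave -0.12 on the log2 scale (implied SE 1.00, interval -2.09 to 1.84). H2AFV (chromosome 7, 44866390 to 44887682, minus strand) had 0.08 there (implied SE 0.93, interval -1.74 to 1.89). Their difference was 0.20 on the log2 scale, H2AFV being the higher, with an implied SE of 1.37. Among 5 pseudogenes of H2AFZ, the closest, H2AFZP3, held 16.1% of its stretches of 31 bases, and H2AFZP1 was the 1 listed above 0, at 0.0947 RPKM in the authors' deposited table. H2AFZ overlaps the antisense transcript RP11-15B17.1 by 383 bases, which was listed at 0.0949 RPKM in the authors' deposited table.

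H2AFX (chromosome 11, 118964564 to 118966177, minus strand) was the highest of the expressed members. The authors' deposited table put it at 0.37 on the log2 scale (implied SE 0.94, interval -1.48 to 2.22), or 1.30-fold higher with OSSL_325096, and 24.7% of the genes had a larger difference. Across all genes the fold change rose with the GC content of the transcripts, and H2AFX is the member with the highest, at 67.1% as the median over its transcripts. Genes under 40% GC (1103) had a median log2 fold change of -0.20, and the 425 genes of at least 65% had 0.25 (quartiles 0.01 and 0.41). With the GC, length and expression trend removed, the value of H2AFX was 0.09 and no member was 0.32 higher on the log2 scale. The part of GC content in the value of H2AFX was not tested.

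**Figure D2:**
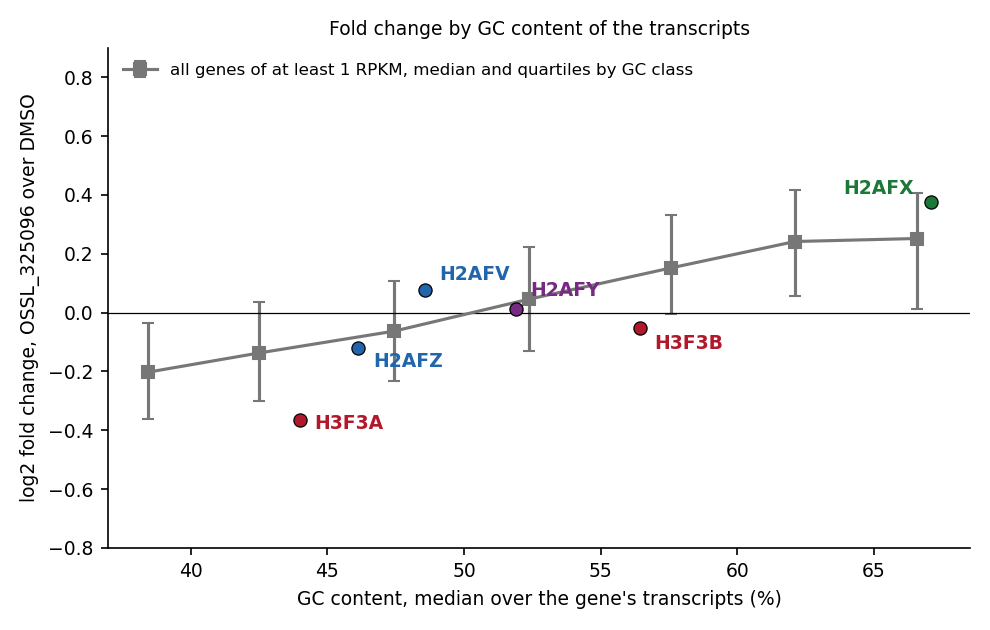
Log2 fold change of OSSL_325096 over DMSO (vertical) against the median GC content over a gene's annotated transcripts in percent (horizontal). Grey squares and bars are the median and quartiles of all genes of at least 1 RPKM in 7 classes of GC content, and coloured points are the 6 expressed replacement histone genes; H2AFX, at 67.1% GC and 0.37, is farthest to the right.

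H2AFY (chromosome 5, 134669590 to 134735604, minus strand), the gene of macroH2A1, was nearest to 0. The authors' deposited table put it at 0.01 on the log2 scale (implied SE 0.88, interval -1.71 to 1.74), and 96.7% of the genes had a larger difference. With the GC, length and expression trend removed it was -0.04. The gene makes splice forms that differ in whether the macro domain binds ADP-ribose, and a value per gene does not separate them. Its relative H2AFY2 (chromosome 10, 71812552 to 71872036, plus strand) was listed at 0 RPKM, so no fold change exists. AIFM2, which overlaps H2AFY2 by 14058 bases on the opposite strand, was listed at 9.80 RPKM and 0.71 in the authors' deposited table.

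H2AFJ (chromosome 12, 14927270 to 14930936, plus strand) had the largest fold on paper and the least RNA behind it. The authors' deposited table gave it 3.18 on the log2 scale at 0.0251 RPKM (implied SE 3.25, interval -3.19 to 9.55, unadjusted p = 0.328). The same fold change, within 0.001 on the log2 scale, was given to 500 other genes, with a median level of 0.0392 RPKM, and 0 of them reached 1 RPKM. Over all 23130 genes with a fold change, 19.8% were at least 1.5-fold higher, against 4.95% at 1 RPKM or more. The depth is unknown, and a fold at this level was not read as a difference in H2AFJ.

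**Figure D3:**
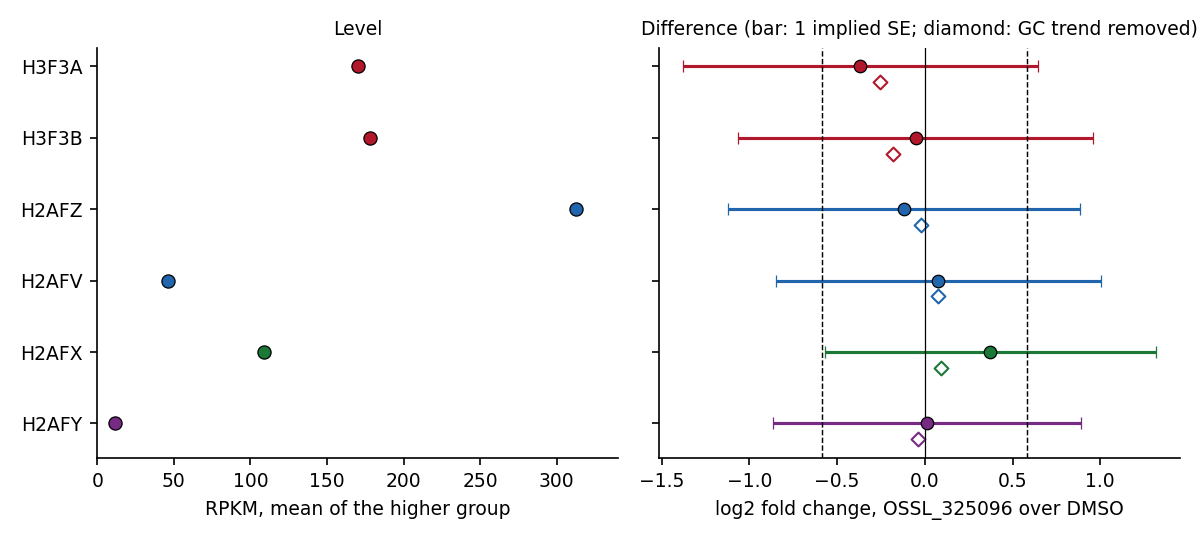
For the 6 expressed members, the left panel gives the mean RPKM of the higher treatment group and the right panel the log2 fold change of OSSL_325096 over DMSO (filled points) with bars of 1 implied SE; open diamonds are the values with the GC, length and expression trend removed. Every bar crosses 0, and the levels run from 11.5 RPKM for H2AFY to 313 RPKM for H2AFZ.

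The proteins that place and read these variants were then compared, from 9 lists with 75 genes, of which 65 reached 1 RPKM. Of these 65, 29 were above 0 and 36 below, 1 was 1.5-fold higher and 3 were 1.5-fold lower, and their median was -0.05. Over all genes 4.95% were 1.5-fold higher and 4.95% lower, so these counts are no larger a share than the background. None of them passed a Benjamini-Hochberg adjusted p of 0.05 or had an unadjusted p under 0.05. Chaperones of H3.3 were split, 4 above and 4 below 0 (median 0.01). Above 0 lay genes of the HIRA complex, which places H3.3 at active genes, with UBN1 at 0.46, CABIN1 at 0.42 and HIRA at 0.13 in the authors' deposited table, as well as DAXX at 0.46. DEK, another H3.3 chaperone, had -0.48 (implied SE 0.88) in the authors' deposited table, ASF1A, which hands H3 to these complexes, -0.33, UBN2, a relative of UBN1, -0.33 and ATRX, the partner of DAXX, -0.12. With the trend removed, 4 were above and 4 below 0, but not the same genes, since HIRA went to -0.0067 and ATRX to 0.085. Chaperones of the replication-coupled H3 were below 0 in 5 of 5 genes, none of them by 1.5-fold, from CHAF1B, a subunit of chromatin assembly factor 1, at -0.47 to CHAF1A at -0.10 in the authors' deposited table (median -0.16, and -0.27 with 5 of 5 below 0 when the trend was removed).

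The SRCAP and TIP60 complexes, which exchange H2A for H2A.Z, had 9 genes above and 9 below 0 (median -0.02), and 0 of 18 past 1.5-fold. RUVBL2, an ATPase of both complexes, had 0.56 (implied SE 0.85) and MBTD1, a TIP60 subunit, -0.45 (implied SE 1.06) in the authors' deposited table. Factors that remove H2A.Z were above 0 in 3 of 4 genes, with ACTR5 at 0.37 and INO80 at 0.29 in the authors' deposited table, and ANP32E, the H2A.Z chaperone, at -0.02. Kinases, readers and remodellers that act on H2AX had a median of -0.04 over 14 genes, 0 past 1.5-fold, and 0.03 with the trend removed. MDC1, the reader of phosphorylated H2AX, had 0.44 and BRCA1 -0.30 in the authors' deposited table. The kinases were at -0.26 for PRKDC, -0.26 for ATM and -0.07 for ATR in the authors' deposited table. Partners of macroH2A had a median of -0.13 over 4 genes, with QKI, a splicing regulator of H2AFY, at -0.30 and CUL3 at 0.25 in the authors' deposited table. Readers of the variants had 0.02 over 4 genes, with PWWP2A, which binds H2A.Z, at 0.29 and MSH6, which binds methylated H3, at -0.17 in the authors' deposited table.

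The 4 related genes past 1.5-fold were a centromere histone and 3 genes of histone mRNA synthesis. CENPA, the H3 variant of centromeres, which is made in G2, stood at 0.70 on the log2 scale (implied SE 0.98, 23.8 RPKM), and HJURP, its chaperone, at 0.24 (implied SE 1.02), both in the authors' deposited table. With the GC, length and expression trend removed, CENPA had 0.71. The mitotic genes CCNB1 and CDC20 were at 1.20 and 1.34 and the replication genes PCNA and MCM2 at -0.50 and -0.29 in the authors' deposited table. MKI67 and TOP2A, the other genes of the same list of cycling markers, were at 0.31 and 0.16 there. The part of the cell cycle in the value of CENPA was not tested. Of the remaining 9 genes of that list, 5 had a fold change, all under 1 RPKM, and 4 were listed at 0. Among 6 genes for the making and 3′ end processing of histone mRNA, 3 were 1.5-fold lower in the authors' deposited table, NPAT, the activator of histone genes, at -0.79, CASP8AP2 (FLASH) at -0.72 and LSM11 at -0.61, with implied SEs of 1.49, 1.23 and 1.24. Of all genes, 4.95% were 1.5-fold lower. All 3 had low levels, from 1.48 to 2.83 RPKM. The more abundant SLBP, which binds the stem-loop, had -0.14 and LSM10 0.37 in the authors' deposited table. With the GC, length and expression trend removed, 0 of the 3 stayed past 1.5-fold, at -0.53, -0.48 and -0.51.

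**Figure D4:**
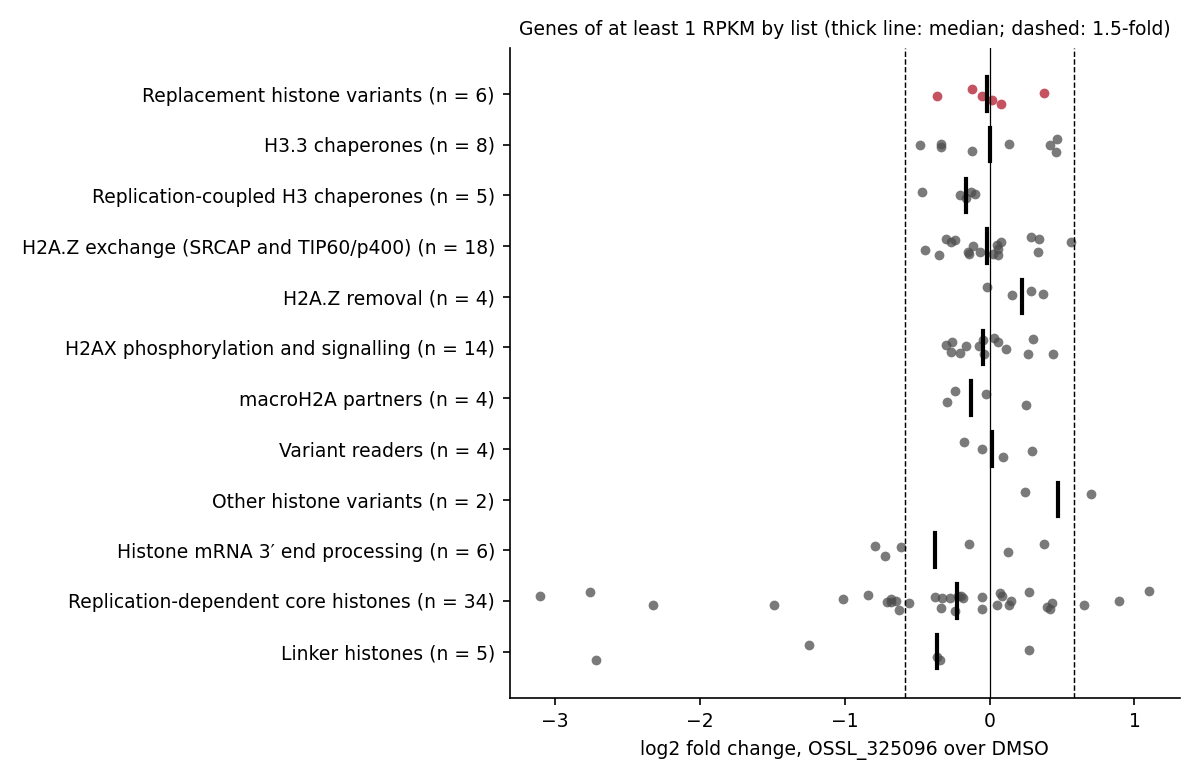
Each point is a gene of at least 1 RPKM, placed by its log2 fold change between OSSL_325096 and DMSO (horizontal), with 1 row per list, thick lines at the list medians and dashed lines at 1.5-fold. The 6 replacement histone genes (red) lie between -0.37 and 0.37, while the 34 replication-dependent core histone genes run from -3.11 (HIST2H4B) to 1.10 (HIST1H3B). HIST2H4B had an implied SE of 1.80 and HIST1H3B 1.63. The similarly named HIST2H4A, also on chromosome 1, was at -0.20 (implied SE 1.24). Median levels were 139 RPKM for the replacement genes and 2.83 RPKM for the core histone genes. The mRNA was captured by its poly(A) tail, which most core histone mRNAs lack.

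The other histone classes had wider fold changes than the replacement variants. By name, 81 genes were taken as replication-dependent core histones. They include pseudogenes listed at 0 RPKM. HIST1H2AA, HIST1H2BA and HIST3H3, also counted among the other histone variants, are in this class too, all under 1 RPKM. Of the 81, 34 reached 1 RPKM. Among these, 3 were 1.5-fold higher and 11 were 1.5-fold lower (median -0.23), where 4.95% of all genes were in each direction. Implied SEs of the 34 ran from 1.19 (HIST1H2BK) to 2.09 (HIST1H4J), beside 0.88 to 1.01 for the 6 expressed replacement variants. Only 18 of the 34 had a value with the GC, length and expression trend removed. Of these 18, 0 were 1.5-fold higher and 4 were lower (median -0.32). HIST1H2AL, HIST1H2BH and HIST1H3B, the 3 that were 1.5-fold higher as deposited, had no such value, so these counts cover different genes. The 13 linker histone genes, taken by name too, also include pseudogenes listed at 0 RPKM. Of the 13, 5 reached 1 RPKM, 0 were 1.5-fold higher and 2 were 1.5-fold lower (median -0.36). Among the lower ones was H1F0, the replacement linker histone, at -2.72 (implied SE 1.43) and 483 RPKM in the authors' deposited table. That level is the DMSO mean, which was above the DMSO level of every member, and the fold change lay outside the range of the 6 expressed ones. The core histone genes had a median level of 2.83 RPKM, against 139 RPKM for the 6 members, and the share of all genes 1.5-fold lower went from 4.95% at 1 RPKM or more to 2.70% at 5 RPKM or more. The mRNA was captured by its poly(A) tail, which most core histone mRNAs lack, so these levels do not compare the abundance of the classes. The part of this capture in the levels and fold changes was not tested. No test of the difference between the classes was made, because it needs the values of single libraries.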

How the data were processed

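Sequencing of RNA covered 4 libraries, from KMS12PE and KMS11 cells with OSSL_325096 or DMSO, after oligo(dT) capture per the labels' protocols. Reads were mapped to hg19 and compared in Biomedical Genomics Workbench 5, per the series' design text; the rule for counting, strandedness, annotation and test were not given in the sources used here. Its table, as deposited, has 6 columns of values and 0 of single libraries. Per the file headers, its RPKM is a mean, that of the higher group; the log2 fold change, the signed fold score and the p-value columns (unadjusted, false discovery rate, Bonferroni) were deposited by the authors. The log2 of the fold column matched the log2 column within 5.5e-06.

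Members and gene lists were chosen with earlier results of these data known. Genes of at least 1 RPKM (11324) were kept, Benjamini-Hochberg values were recomputed over them, and genes were called at 1.5-fold. A regression with terms up to degree 3 in GC content, transcript length and expression explained 15.8% of the variance of the fold changes and covered 98.1% of the genes; it and the adjustment were tested on simulated data. GC content, coding sequences and stem-loops came from GENCODE 44 on GRCh37, promoters from RefSeq on GRCh38.p14, matched for 8 of 8 members. Proteins were not analysed here. Named genes were all members and, of each list, up to 6 genes past 1.5-fold, or otherwise the 2 with the largest fold change; other list genes, and those of the 2 compared histone classes, were named after their values were seen. Alternatives were other RPKM minimums, other folds, centring and removal of the trend. Python 3.11.15, pandas 2.3.3, numpy 2.4.6 and scipy 1.17.1 were used.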

Additional observations from a re-analysis of the deposited data

How the results depend on the processing

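Of 87 alternative values, 72 were labelled unchanged, 14 moved further and 1, a member's fold change, changed sign. Counts and shares were labelled unchanged within 1.5 times. List medians were labelled unchanged if they moved by less than the median implied SE of the list's genes. All 36 alternative medians met this wide limit, although 5 of them changed sign, so the label says little about them. A member's fold change was labelled unchanged if its sign was kept, and an adjusted p if it stayed on its side of the threshold, which no gene passed under either adjustment. These are loose limits, since H2AFX was labelled unchanged on going from 0.37 to 0.09 with the trend removed. H2AFY went from 0.01 to -0.0416 with the GC, length and expression trend removed, and no other member changed sign. GC content and length in this trend were medians over a gene's annotated transcripts. For H3F3B these were 56.4% and 783 bases, while the transcript used for its coding sequence has 43.1% and 2705 bases. Its value with the trend removed, -0.18, rests on the former. The number of members 1.5-fold higher went from 0 to 1 with no minimum on RPKM (H2AFJ) and to 1 at 0.32 on the log2 scale, and the number lower to 1 at 0.32 too. The share of all genes that was higher went from 4.95% to 19.8% with no minimum, to 16.4% at 0.32 on the log2 scale and to 0.989% at 2-fold. The share that was lower went to 18.0%, 15.2% and 1.09% under the same changes and to 2.70% at 5 RPKM or more. Over the 9 related lists, the genes past 1.5-fold went from 1 to 3 higher and from 3 to 5 lower with no minimum, and the 3 lower ones to 0 at 5 RPKM or more and to 0 with the trend removed. The sign changes were 5 of 36 list medians under alternatives. The median of the histone mRNA list went from -0.38 to 0.12 at 5 RPKM or more, where only its more abundant genes were left, and the other 4 stayed within 0.06 of 0. Apart from the filters, which change the genes counted, the causes were not tested. Leaving out each library, blocking by cell line and another pseudocount were not run, since they need values of single libraries. No paired analysis was possible because the result comes from the authors' comparison and the table has no columns of single libraries. Without a known depth there is no counting interval.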
